A study of Mus musculus with 6 samples.

Results

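The BCL2 family decides whether the outer membrane of the mitochondrion stays intact, and 10 of its genes were followed in the pressure-overloaded mouse left ventricle with and without blockade of PD-1. The genes were taken by name from the 54929 rows of the deposited count table: the effectors Bax and Bak1, the BH3-only genes Bid, Bad, Bcl2l11 (BIM) and Bbc3 (PUMA), the pro-survival genes Bcl2, Bcl2l1 (BCL-XL) and Mcl1, and Bnip3. Wild-type C57BL/6 mice had undergone transverse aortic constriction (TAC), which narrows the aorta and loads the left ventricle. From day 14 after surgery they received either an anti-PD-1 antibody (3 libraries) or an anti-IgG control antibody (3 libraries), injected intraperitoneally every 3 days at a dose of 10 mg/kg, and the time label of every sample is 5 weeks. Both groups had thus been operated on and injected, and no group without surgery was analysed here. The sources used here do not give age or sex or say that each library came from its own animal, so p-values measure the spread between these samples.

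Effectors, once active, perforate the mitochondrial outer membrane and let cytochrome c reach the cytosol, where it switches on caspases. Pro-survival members hold effectors and BH3-only proteins in check, and BH3-only proteins carry death signals by occupying the pro-survival members or by activating the effectors. The heart muscle cell is packed with mitochondria and hardly divides; in the mouse heart MCL1 and BCL-XL are known for keeping it alive. Much of this control acts on the proteins, by cleavage of BID (which granzyme B can perform), by phosphorylation of BAD and by degradation of MCL1, and is not visible in mRNA.

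The 6 libraries held 18063344 to 21093163 counted reads. The 10 genes together took 0.0496 to 0.0573% of them under anti-PD-1 and 0.0431 to 0.0496% under anti-IgG. Most of these reads were of Mcl1 and Bnip3. Genes of the mitochondrial genome took 28.9 to 35.65% of all counted reads under anti-PD-1 and 29.9 to 39.3% under anti-IgG. Ventricular muscle markers were abundant: the 8 cardiomyocyte markers summed to 13850 to 26954 CPM under anti-PD-1 and to 23414 to 31767 CPM under anti-IgG, with 1 member higher (Ryr2) and 3 lower (Myl2, Tnni3, Tnnt2) under anti-PD-1. Of the atrial markers, Sln had 0 reads in all libraries. B cell markers summed to 9.75 to 14.0 CPM under anti-PD-1 and to 21.2 to 27.4 CPM under anti-IgG, and 3 of 5 fell. T cell markers summed to 1.39 to 1.99 CPM under anti-PD-1 and to 2.10 to 2.80 CPM under anti-IgG, with 1 of 2 tested lower. No cell type marker list other than cardiomyocyte, B cell, T cell and macrophage (1 of 5, Adgre1, higher) held a changed gene, and the adipocyte markers were below the count filter. Of these marker calls that of Ryr2 held whichever library was left out, and each of the others ended without at least 1 single library (library 3 of anti-IgG or library 1 of anti-PD-1 for Cd79a, the B cell receptor chain that fell most, and library 2 of anti-IgG for Myl2). With the dependence of fold changes on coding and 3′ UTR length removed, the calls of Ryr2 (edgeR adjusted p = 0.112), Myl2 (0.0778), Tnni3 (0.187), Tnnt2 (0.166), Cd79b (0.0874), Ighm (0.127) and Cd2 (0.0732) ended, and those of Adgre1 (0.0318) and Cd79a (0.0439) held. In whole tissue, fewer cells of a type and less RNA per cell cannot be told apart, and the part of these shifts in the results below was not tested.

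All 10 genes passed the count filter. Under anti-PD-1, Bax and Bad fell, Bnip3 rose, and the other 7 did not pass the threshold (edgeR's quasi-likelihood test with p adjusted after Benjamini and Hochberg over all tested genes, threshold 0.05). This is 3 of 10 members, against 21.1% of the 14807 tested genes in either direction, 10.3% higher and 10.8% lower. Of all called genes 48.9% rose, or 36.8% with upper quartile scaling, which put the median of all tested genes at -0.12. The groups were separate, without overlap of their values, in 5 members (Bax, Bad and Bbc3 lower, Mcl1 and Bnip3 higher), against 41.0% of the tested genes, 20.2% higher and 20.8% lower. All 6 effector and BH3-only genes had negative log2 fold changes (median -0.67) and all 3 pro-survival genes positive ones (median 0.14), while the median of all tested genes was -0.03. Bak1, Bcl2l11, Bcl2l1 and Mcl1 lay within their SE of 0. Among other tested family genes, Bok (-0.43), Bmf (-0.18), Bik (-1.66), Hrk (-0.21) and Bcl2l2 (0.28) had the same sign by role. The pro-apoptotic Pmaip1 (0.58) and Bnip3l (0.07) and the pro-survival Bcl2a1d (-0.26) had the opposite sign. Of these other genes Bmf, Hrk, Pmaip1, Bnip3l and Bcl2a1d lay within their SE of 0. The count of members past the threshold was 0 without anti-IgG library 2, 1 when anti-IgG library 3 was left out and likewise for anti-PD-1 library 1 and for library 3, 2 without anti-PD-1 library 2 and 3 without anti-IgG library 1. The plot of CPM by library shows all 60 values.

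**Figure D1:**
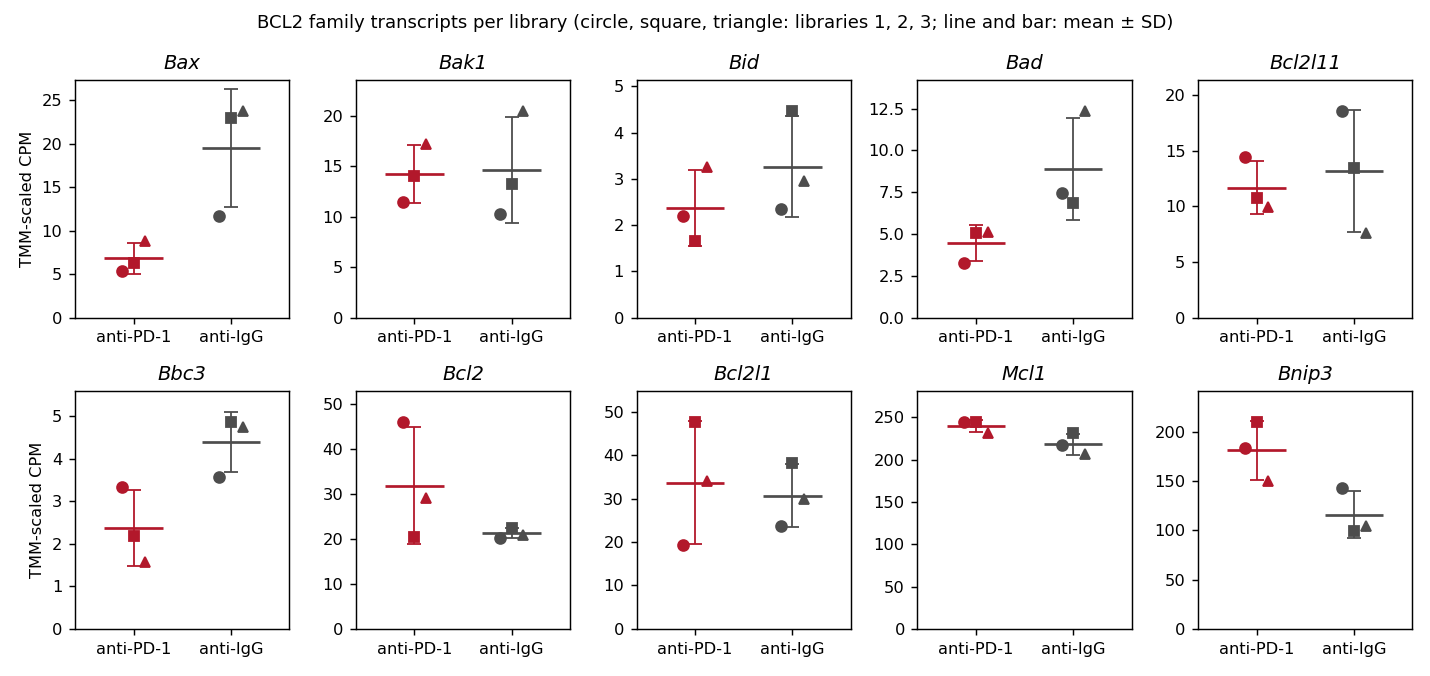
TMM-scaled CPM (reads scaled to a common library size) of each of the 10 genes in the 3 anti-PD-1 (left, red) and 3 anti-IgG (right, grey) libraries; each panel has its own axis from 0, symbols mark libraries 1 to 3, and line and bar give mean ± SD. The anti-PD-1 values lie below all anti-IgG values in Bax, Bad and Bbc3 and above them in Mcl1 and Bnip3.

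Of the effectors, Bax fell and Bak1 did not pass. Bax (ENSMUSG00000003873, chromosome 7, 45461697 to 45466898, minus strand; coordinates are mm10 throughout) encodes a cytosolic protein that moves to mitochondria when activated. Its reads numbered 108, 117 and 184 (anti-PD-1, libraries 1 to 3), against 228, 411 and 475 (anti-IgG, libraries 1 to 3), that is 5.38, 6.27 and 8.84 CPM against 11.7, 23.0 and 23.8 CPM. Every anti-PD-1 value was below every anti-IgG value, and anti-IgG library 1 was the lowest of its group. The means were 6.83 ± 1.79 CPM under anti-PD-1 and 19.5 ± 6.77 CPM under anti-IgG (SD, n = 3 each), which gave a log2 fold change of -1.51 ± 0.30 (SE) and an edgeR adjusted p of 0.00991. Without anti-IgG library 2 it was -1.39 (edgeR adjusted p = 0.0556; over all alternatives 3.28e-07 to 0.113).

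Bak1 (ENSMUSG00000057789, chromosome 17, 27019810 to 27029009), the effector that resides on mitochondria in resting cells, overlapped between the groups. It had 11.5, 14.0 and 17.2 CPM under anti-PD-1 and 10.3, 13.2 and 20.5 CPM under anti-IgG, the anti-PD-1 values lying within the anti-IgG range. Its log2 fold change was -0.05 ± 0.27 (SE; adjusted p = 0.92 by edgeR) and was positive in 8 of the 21 alternatives. Within each library the level of Bax per kb of gene length was 0.717, 0.685 and 0.787 times that of Bak1 under anti-PD-1, against 1.73, 2.66 and 1.77 times under anti-IgG. Bax was thus the less abundant of the effectors in all 3 anti-PD-1 libraries and the more abundant in all 3 anti-IgG libraries on this scale. Per kb of the longest annotated transcript, a scale chosen after seeing the data, which is shorter than the authors' gene length for Bax (867 against 1576 bp), the order under anti-PD-1 turned round and Bax was the higher of the pair in both groups, at 7.88 ± 2.07 against 5.95 ± 1.19 for Bak1 under anti-PD-1 and 22.5 ± 7.81 against 6.14 ± 2.20 under anti-IgG. The log2 Bax to Bak1 ratio per kb of gene length was -0.46 ± 0.10 under anti-PD-1 and 1.01 ± 0.35 under anti-IgG. The difference of -1.47 is the same whichever length the levels are divided by. The gap between the fitted log2 fold changes of Bax and Bak1 was -1.46 as counted. It was -1.23 with the gene length trend removed and -0.95 with the coding and 3′ UTR length trend removed.

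Among the BH3-only genes, Bad fell and the other 3 did not pass. Bad (ENSMUSG00000024959, chromosome 19, 6941861 to 6951898), which binds BCL-XL and BCL2 when growth factor signals are withdrawn, had 3.24, 5.04 and 5.14 CPM under anti-PD-1, against 7.48, 6.82 and 12.4 CPM under anti-IgG. The groups did not overlap, and anti-IgG library 3 was the highest. The log2 fold change was -0.99 ± 0.30 (SE; adjusted p = 0.0409 by edgeR), and without anti-IgG library 3 it was -0.68 (edgeR adjusted p = 0.157). The call held in 10 of 21 alternatives. By edgeR the call of Bad held without anti-IgG library 1 and ended without any other single library (0.0613 to 0.157). It also ended by limma-voom (adjusted p = 0.0523). By limma-trend it ended on log2(FPKM + 1) (0.0551) and log2(FPKM + 0.1) (0.0536), and held with a filter on FPKM (0.0451). Over all alternatives the adjusted p was 0.0103 to 0.307.

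Bbc3 (ENSMUSG00000002083, chromosome 7, 16308393 to 16318205), a p53 target that engages all pro-survival members, was low. It had 67, 41 and 33 reads under anti-PD-1 and 70, 87 and 95 under anti-IgG, or 3.34, 2.20 and 1.59 CPM against 3.59, 4.87 and 4.76 CPM. The groups did not overlap, but library 1 of each was close to the other, and the log2 fold change of -0.89 (SE 0.35) did not pass (edgeR adjusted p = 0.0922). It did not pass in any of the 21 alternatives.

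Bcl2l11 and Bid overlapped between groups. Bcl2l11 (ENSMUSG00000027381, chromosome 2, 128126038 to 128162547), whose product can activate the effectors directly, had 14.4, 10.7 and 9.94 CPM under anti-PD-1 and 18.6, 13.4 and 7.61 CPM under anti-IgG (log2 fold change -0.18 ± 0.30 (SE), adjusted p = 0.71 by edgeR). In both groups library 1 was the highest and library 3 the lowest. Bid (ENSMUSG00000004446, chromosome 6, 120891930 to 120916853), which links death receptors and granzyme B to mitochondria after cleavage, was the least abundant member per kb in both groups. It had 44, 31 and 68 reads under anti-PD-1 and 46, 80 and 59 under anti-IgG, 2.19, 1.66 and 3.27 CPM against 2.36, 4.47 and 2.95 CPM, and a log2 fold change of -0.45 ± 0.39 (SE; adjusted p = 0.419 by edgeR).

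Of the pro-survival genes 0 passed by edgeR and 0 by DESeq2, and 1, Bcl2, had an unadjusted p under 0.05. Mcl1 (ENSMUSG00000038612, chromosome 3, 95658788 to 95663176), whose short-lived protein guards BAK1, was even across libraries, with 244, 244 and 231 CPM under anti-PD-1 against 218, 231 and 206 CPM under anti-IgG. The groups touched without overlapping, anti-PD-1 library 3 lying just above anti-IgG library 2, and the log2 fold change was 0.14 ± 0.17 (SE; adjusted p = 0.605 by edgeR). It made up 86.6 ± 1.79% of the summed per-kb level of the pro-survival members under anti-PD-1 and 87.7 ± 1.72% under anti-IgG.

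Bcl2l1 (ENSMUSG00000007659, chromosome 2, 152780668 to 152831728) had 19.3, 47.6 and 34.1 CPM under anti-PD-1 and 23.8, 38.2 and 29.9 CPM under anti-IgG. The spread within each group was wider than the distance between them, with library 1 the lowest and library 2 the highest in both (log2 fold change 0.14 ± 0.30 (SE), adjusted p = 0.782 by edgeR).

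Bcl2 (ENSMUSG00000057329, chromosome 1, 106538178 to 106714274), the founding member, had 46.0, 20.5 and 29.2 CPM under anti-PD-1, against 20.3, 22.5 and 20.98 CPM under anti-IgG. The anti-IgG libraries were close together; anti-PD-1 library 1 was far above them and library 2 lay among them. The log2 fold change of 0.59 (SE 0.26) did not pass (edgeR adjusted p = 0.128); it was 0.84 without anti-PD-1 library 2, where it passed (edgeR adjusted p = 0.0325; 0.0384 with no count filter), and 0.23 without anti-PD-1 library 1 (0.528; over all alternatives 0.0325 to 0.805).

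Bnip3 (ENSMUSG00000078566, chromosome 7, 138890836 to 138909519) encodes a mitochondrial protein with a BH3-like segment that is best known as a receptor for mitophagy, induced by hypoxia. It had 184, 209.8 and 149.9 CPM under anti-PD-1 and 143, 99.6 and 104 CPM under anti-IgG. The groups did not overlap, though anti-PD-1 library 3 and anti-IgG library 1 were close. The means were 181 ± 30.1 CPM under anti-PD-1 and 116 ± 23.8 CPM under anti-IgG (log2 fold change 0.65 ± 0.21 (SE), adjusted p = 0.0494 by edgeR). The call was narrow and held in 10 of 21 alternatives. By edgeR it held without anti-IgG library 1 (0.0194) and ended without any other single library (0.0574 to 0.191). It also ended by edgeR with upper quartile scaling (0.0698), with the stricter count filter (0.0509) and without the robust setting (0.0526). By limma-trend on FPKM the call ended as well (0.0518 to 0.0539). The log2 fold change of Bnip3 was 0.53 to 1.00 over all alternatives. Its paralog Bnip3l (NIX), also a mitophagy receptor, did not pass, with 75.2 ± 4.59 CPM under anti-PD-1 and 71.4 ± 8.64 CPM under anti-IgG (log2 fold change 0.07 ± 0.17 (SE), adjusted p = 0.785 by edgeR).

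The promoters of the member that fell most and of the one that rose are shown because both hold the hexamer CACGTG, an E-box that contains ACGTG, the core to which hypoxia-inducible factors bind, on both strands. The sequences are RefSeq's (GRCm38.p6), 300 bases from 250 before to 50 after the start of transcription, 5′ to 3′ on the gene's strand, with capitals marking ACGTG and GCGTG on either strand, overlaps merged.
Bax, chr7:45466849-45467148, minus strand: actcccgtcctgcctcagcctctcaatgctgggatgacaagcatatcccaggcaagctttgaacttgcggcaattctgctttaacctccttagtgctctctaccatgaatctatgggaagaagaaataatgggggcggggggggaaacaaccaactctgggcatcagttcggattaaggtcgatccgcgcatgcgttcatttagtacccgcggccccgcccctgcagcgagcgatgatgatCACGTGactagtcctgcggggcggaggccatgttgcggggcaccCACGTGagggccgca
Bnip3, chr7:138909457-138909756, minus strand: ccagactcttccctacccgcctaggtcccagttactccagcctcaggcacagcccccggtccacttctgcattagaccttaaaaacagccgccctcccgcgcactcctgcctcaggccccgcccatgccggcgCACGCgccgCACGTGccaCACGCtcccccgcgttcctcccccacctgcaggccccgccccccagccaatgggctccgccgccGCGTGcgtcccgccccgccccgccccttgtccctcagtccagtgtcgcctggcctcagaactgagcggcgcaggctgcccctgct
Bax held CACGTG at 2 positions and no GCGTG, and Bnip3 held CACGTG at 1 position with GCGTG at 3 others. All 10 members matched a RefSeq entry by symbol, with 16 promoters in all, of which 3 held CACGTG (the third was 1 of 3 promoters of Bbc3) and 9 held GCGTG. Of the 32851 RefSeq promoters of this length, 7.15% held CACGTG, 19.6% ACGTG and 32.4% GCGTG. The GC content was 57.3% for Bax and 71.7% for Bnip3, against a median of 52.7% over all promoters, and the single Bcl2 promoter had 76.0%. A match of letters describes the sequence and is not a binding site.

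Levels of different genes can be compared per kb only. On this scale, TMM-scaled CPM per kb of the authors' gene length (TMM-scaled FPKM), Bnip3 and Mcl1 were far above the rest: Bnip3 stood at 80.0 ± 13.3 and Mcl1 at 70.1 ± 2.19 under anti-PD-1, and at 51.0 ± 10.5 and 63.8 ± 3.64 under anti-IgG. The ranges of Bnip3 and Mcl1 overlapped in both groups. They were 66.2 to 92.6 and 67.6 to 71.5 under anti-PD-1, and 44.0 to 63.1 and 60.3 to 67.6 under anti-IgG. Within libraries, Mcl1 was above Bnip3 in each anti-IgG library, by little in library 1 (63.6 against 63.1). Under anti-PD-1, Bnip3 was the higher in libraries 1 and 2 and Mcl1 in library 3. Bcl2l1 (7.34 ± 3.09), Bak1 (5.90 ± 1.18), Bax (4.33 ± 1.14) and Bcl2 (3.48 ± 1.42) followed under anti-PD-1, each overlapping the next. Under anti-IgG they were followed by Bax (12.4 ± 4.30), Bcl2l1 (6.68 ± 1.58), Bak1 (6.09 ± 2.18), Bad (4.43 ± 1.51) and Bcl2 (2.32 ± 0.12), each overlapping the next except Bad and Bcl2, so Bax was the third most abundant member there and the fifth under anti-PD-1. Bad stood at 2.23 ± 0.53 under anti-PD-1, and Bcl2l11, Bbc3 and Bid lay between 0.669 and 2.07 on average in both groups. This order depends on the length used. Per kb of the longest annotated transcript, Bax came before Bak1 under anti-PD-1. On that scale Bnip3 (85.3 to 119.5) lay above Mcl1 (67.6 to 71.5) under anti-PD-1 without overlap, and they overlapped under anti-IgG.

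The Bax to Bcl2 ratio, often read as an index of readiness for apoptosis, was lower in every anti-PD-1 library. Per kb of gene length it was 0.68, 1.78 and 1.76 for libraries 1 to 3 of anti-PD-1 and 3.35, 5.94 and 6.59 for those of anti-IgG. On the log2 scale this was 0.36 ± 0.80 under anti-PD-1 and 2.34 ± 0.53 under anti-IgG, a difference of -1.98. The summed level of the 6 effector and BH3-only genes was 13.8, 15.1 and 18.2 TMM-scaled FPKM under anti-PD-1 and 20.1, 28.7 and 33.8 under anti-IgG, with no overlap. That of the 3 pro-survival genes was 80.6, 84.1 and 78.2 under anti-PD-1 and 71.0, 78.3 and 69.1 under anti-IgG; anti-PD-1 library 3 was just below anti-IgG library 2. The log2 ratio of these sums was -2.37 ± 0.24 under anti-PD-1 and -1.44 ± 0.40 under anti-IgG, a difference of -0.94, and its groups did not overlap. Bax alone made up 27.3 ± 3.14% of the summed effector and BH3-only level under anti-PD-1 and 44.1 ± 6.98% under anti-IgG. The ratio of Bcl2l1 to Mcl1 overlapped, at -3.35 ± 0.67 under anti-PD-1 and -3.28 ± 0.31 under anti-IgG on the log2 scale. These are descriptions of chosen members, with no length trend removed, and carry no test.

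**Figure D2:**
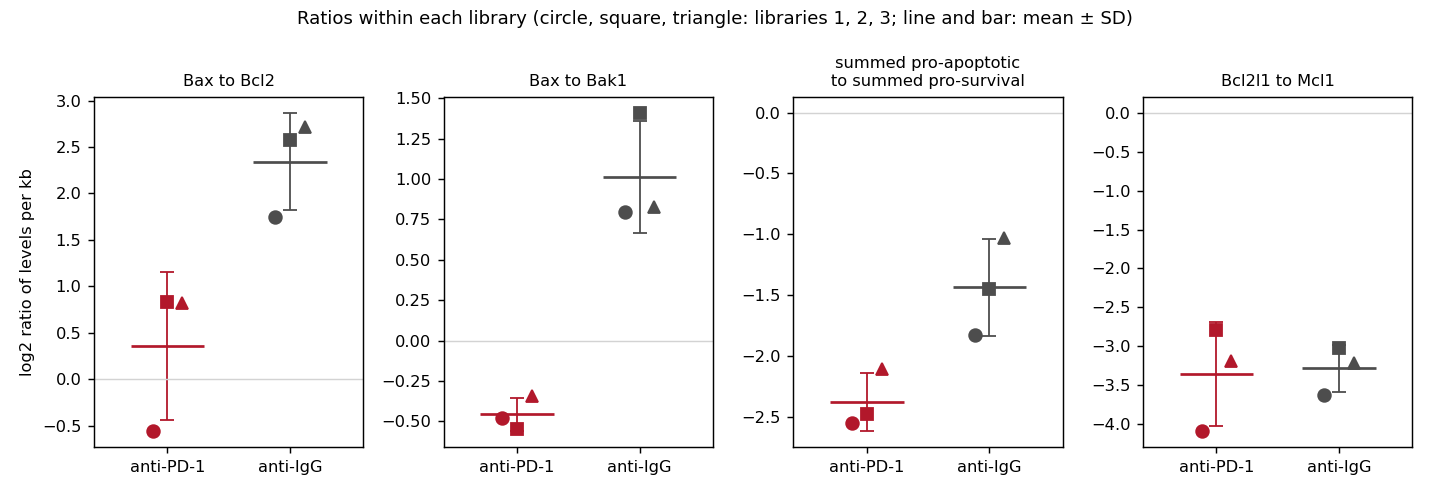
Log2 ratios of levels per kb of gene length within each of the 3 anti-PD-1 (left, red) and 3 anti-IgG (right, grey) libraries; symbols mark libraries 1 to 3, line and bar give mean ± SD, and each panel has its own axis. The Bax to Bcl2, Bax to Bak1 and summed ratios are lower in all anti-PD-1 libraries than in any anti-IgG library, and Bcl2l1 to Mcl1 overlaps.

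Fold changes in these libraries moved with gene length, and the members differ in length. Bax, Bad and Bbc3 have 1576 to 2124 bp in the authors' gene length column, whereas Bcl2 has 9157 bp with a 3′ UTR of 5089 bp, against 168 bp for Bax. Length partly separates the roles. Bax, Bad, Bbc3 and Bak1 (2407 bp) are shorter than every pro-survival gene, of which Mcl1 has 3418 bp and Bcl2l1 4586 bp. Bid at 3550 bp and Bcl2l11 at 8029 bp are longer than Mcl1. By longest annotated transcript, Bcl2l11 (5036 bp) alone of the effector and BH3-only genes is not shorter than every pro-survival gene. Role and length thus go largely together among the members. The tested genes were divided into 10 classes of equal size by length. By transcript length, only genes with a transcript holding both coding sequence and 3′ UTR were classed. The class of Bax thus held 1308 genes by transcript length, against 1481 by gene length. In class 2 by gene length (1407 to 2149 bp), which holds Bax, Bad and Bbc3, 24.2% fell, 2.16% rose and the median log2 fold change was -0.53, and 5.40% of its genes lay below Bax. By transcript length Bax is in the shortest class (204 to 1362 bp), of which 52.1% fell, with a median of -0.91, and 14.4% lay below Bax. In class 9 by gene length (7273 to 9592 bp), which holds Bcl2 and Bcl2l11, the median was 0.32, so Bcl2 lay 0.27 above it and Bcl2l11 0.49 below it. Bnip3 went against the trend: in its gene length class (2150 to 2799 bp) 2.70% rose, the median was -0.34, and 93.4% of the genes lay below Bnip3.

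**Figure D3:**
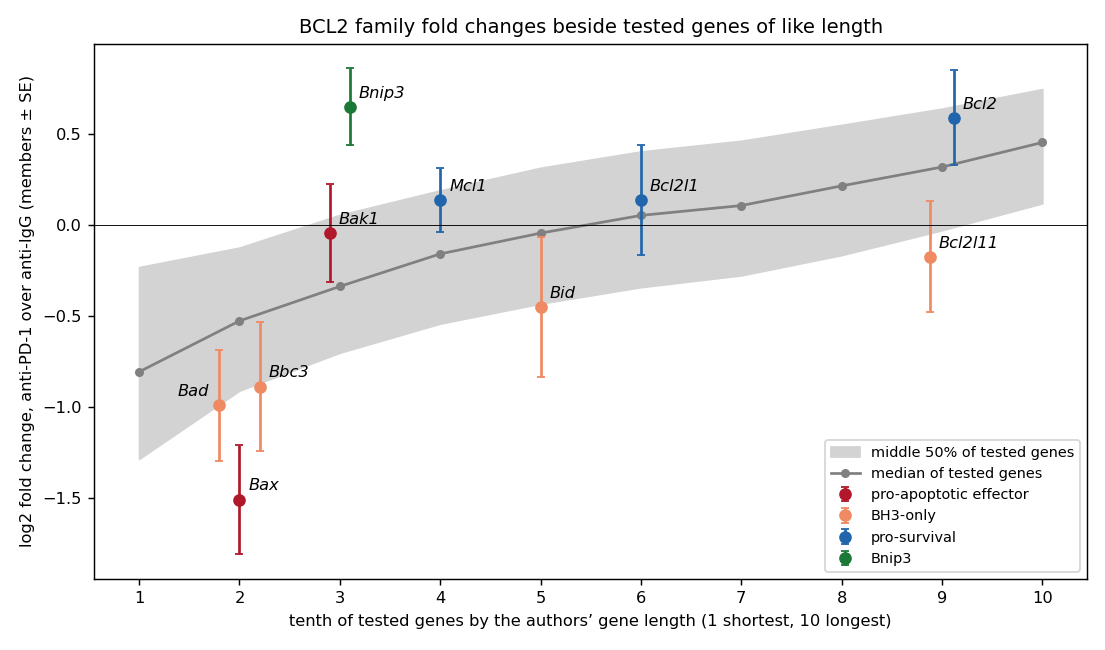
Log2 fold change (anti-PD-1 over anti-IgG) of the 10 members (± SE, coloured by role) at their gene length class (10 classes of equal size) among 14807 tested genes; the grey line is the median and the band the middle 50% of all tested genes of that class. Bax, Bad, Bid and Bcl2l11 lie below the band, Bnip3 above it and the other 5 members within it.

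When each library's trend on gene length was removed, Bax was at -1.01 (SE 0.27, adjusted p = 0.0372 by edgeR) and Bnip3 at 0.93 (SE 0.22, 0.0271), both past the threshold, and Bad at -0.62 (0.168) was not. With the trend on coding and 3′ UTR length removed, Bnip3 was at 1.00 (SE 0.23, adjusted p = 0.0328 by edgeR) and was the only one of the 10 members past the threshold, while Bax was at -0.68 (SE 0.24, 0.113) and Bad at -0.47 (0.307). The gap between the fitted log2 fold changes of Bax and Bcl2 was -2.10 as counted, -1.18 with the gene length trend removed and -1.05 with the coding and 3′ UTR length trend removed. In that last fit 5 of the 6 effector and BH3-only genes still had negative values (median -0.36), and Mcl1 was at -0.03 and Bak1 at 0.27.

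**Figure D4:**
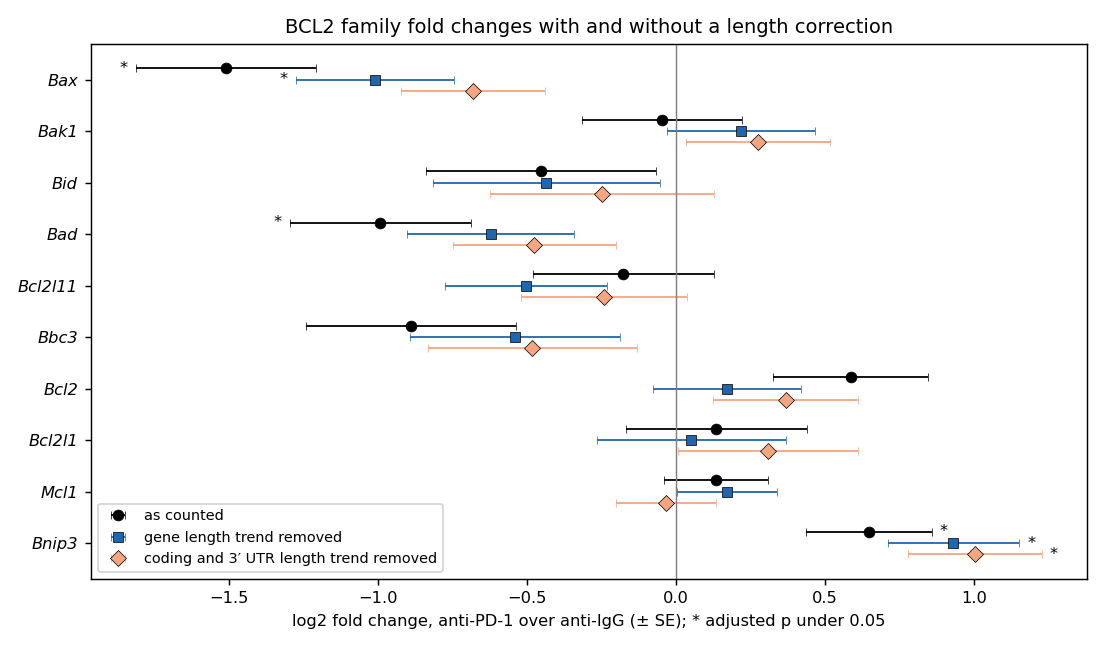
Log2 fold change ± SE of each member, anti-PD-1 over anti-IgG, as counted (black), with each library's gene length trend removed (blue) and with its coding and 3′ UTR length trend removed (orange); asterisks mark an adjusted p under 0.05. Bax moves from -1.51 to -0.68 over the 3 fits and Bnip3 from 0.65 to 1.00.

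Some members share exons with another gene on the opposite strand, and the sources used here do not say whether counting used strand. Bak1 shares 25.5% of its annotated exon bases with Ggnbp1, Bad 20.5% with Gpr137 and Bid 17.7% with Bcl2l13, so part of their reads cannot be assigned for certain. Over the 6 libraries 812 reads were counted to Ggnbp1, 1958 to Gpr137 and 7973 to Bcl2l13. In a single library Bak1 had 201 to 409 reads, Bad 65 to 247 and Bid 31 to 80. Bnip3 shares 22.3% with Gm45507 and Bcl2 6.09% with D630008O14Rik on the opposite strand, and Bax 12.2% with Gm45808 on the same strand; over the 6 libraries 0 reads were counted to Gm45507 and to Gm45808 and 10 to D630008O14Rik. Annotated pseudogenes of Bnip3 had 0 to 20 reads each over the 6 libraries, against 1780 to 3916 reads of Bnip3 in a single library.

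The rest of the family gave 4 calls among 12 tested genes, against 21.1% of all tested genes. Of the other pro-survival genes 2 of 6 were tested, and neither Bcl2l2 (BCL-W, 36.7 ± 6.84 CPM under anti-PD-1 and 30.1 ± 5.30 CPM under anti-IgG, log2 fold change 0.28, edgeR adjusted p = 0.335) nor Bcl2a1d (-0.26, 0.83) passed. The Bcl2a1 genes are near-identical copies with uncertain counts, and Bcl2a1c and Bcl2l10 had 0 reads in all libraries. Of the 6 other pro-apoptotic genes 1 fell and 5 did not pass (median -0.20): Bik, a BH3-only protein of the endoplasmic reticulum, had 1.55, 1.71 and 1.92 CPM under anti-PD-1, against 3.53, 6.49 and 6.41 CPM under anti-IgG (log2 fold change -1.66 ± 0.34 (SE), adjusted p = 0.0106 by edgeR; 0.0587 without anti-IgG library 2). Of the less studied members Bcl2l13, a mitophagy receptor of the outer membrane, rose (87.1 ± 10.2 CPM under anti-PD-1 and 48.7 ± 8.12 CPM under anti-IgG, log2 fold change 0.84, edgeR adjusted p = 0.0143), and Bnip1 (-1.05, 0.0119) and Bcl2l12 (-1.26, 0.0216) fell. With the coding and 3′ UTR length trend removed none of these 4 passed, Bik being at -0.89 (0.105) and Bcl2l13 at 0.37 (0.244). Without anti-IgG library 2 none of the 4 passed. The call of Bnip1 also ended without anti-PD-1 library 1, and that of Bcl2l12 without anti-IgG library 3 and without library 1 or 3 of anti-PD-1; the highest edgeR adjusted p on leaving out a library was 0.0546 for Bnip1 and 0.0993 for Bcl2l12.

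Downstream of the effectors, calls were of both signs; among all tested genes 10.3% rose and 10.8% fell. Of 9 apoptosome and caspase genes 1 fell, 0 rose and 8 did not pass (median -0.41): Cycs, cytochrome c of the respiratory chain and of the apoptosome, had 178.9 ± 56.2 CPM under anti-PD-1 and 393 ± 128 CPM under anti-IgG (log2 fold change -1.14 ± 0.29 (SE), adjusted p = 0.0231 by edgeR). Its call ended on leaving out library 2 or 3 of anti-IgG, or library 1 or 3 of anti-PD-1 (up to 0.0825), and with the coding and 3′ UTR length trend removed (0.0877). Of the proteins released from mitochondria, Htra2 also fell (-0.94, edgeR adjusted p = 0.0314; 0.217 with that trend removed), so 2 of 5 fell (median -0.74) with Cycs counted in both lists; its call ended on leaving out library 2 or 3 of anti-IgG, or library 1 or 2 of anti-PD-1 (up to 0.125). Of 5 caspase inhibitors 1 rose, the giant inhibitor Birc6 (log2 fold change 0.89, edgeR adjusted p = 0.0149; 0.0667 without anti-IgG library 2; list median 0.04), and of 9 tested death receptor genes 1 rose, Cflar, which encodes the caspase-8 inhibitor cFLIP (0.66, 0.0338; list median -0.13). The call of Cflar ended on leaving out library 2 or 3 of anti-IgG, or library 1 or 3 of anti-PD-1 (up to 0.156). Birc6 and Cflar are long, at 28830 and 12669 bp, and neither passed with the coding and 3′ UTR length trend removed (0.387 and 0.519). None of the 8 genes of outer membrane channels and fission passed by edgeR; 2 had an unadjusted p under 0.05, Mfn2 (0.67, adjusted p = 0.0616) and Dnm1l (0.49, 0.101), and 1, Mfn2, passed by DESeq2 (adjusted p = 0.0161).

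Bax and Bbc3 are textbook p53 targets. Of 14 other genes of the p53 list, 3 rose, 0 fell and 11 did not pass, against 10.3% higher and 10.8% lower among all tested genes, with a median log2 fold change of 0.29, against -0.03 over all tested genes. Ccng1, a p53-induced cyclin, had 1689.6 ± 250.1 CPM under anti-PD-1 and 769.9 ± 48.4 CPM under anti-IgG (log2 fold change 1.13 ± 0.22 (SE), adjusted p = 0.00886 by edgeR) and passed in all 21 alternatives. Mdm2, the ligase that degrades p53, was at 0.62 (edgeR adjusted p = 0.0257) and Zmat3 at 1.04 (0.0238); both calls ended on leaving out library 2 or 3 of anti-IgG, or library 1 or 3 of anti-PD-1 (up to 0.122), and with the coding and 3′ UTR length trend removed (0.0624 and 0.121). Bnip3 is a hypoxia-induced gene, and the 13 other genes of that list split: Pdk1, which restrains pyruvate oxidation, rose (1.22, edgeR adjusted p = 0.0105; 0.0585 without anti-IgG library 2), Fam162a (-0.99, 0.00883), Ankrd37 (-1.47, 0.0177) and Adm (-0.84, 0.0477) fell, and 9 did not pass (median -0.05). On leaving out single libraries the call of Fam162a held throughout, that of Ankrd37 ended without anti-IgG library 2 and without library 1 or 3 of anti-PD-1 (up to 0.0802), and that of Adm held without anti-IgG library 1 alone (up to 0.155). With the coding and 3′ UTR length trend removed, Pdk1 still passed (0.84, 0.0434) and Fam162a (-0.12), Ankrd37 (-0.67) and Adm (-0.29) did not. Over all 93 other family and pathway genes 85 were tested, 9 rose and 10 fell, with a median of -0.09, a share near the 21.1% called among all tested genes.

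**Figure D5:**
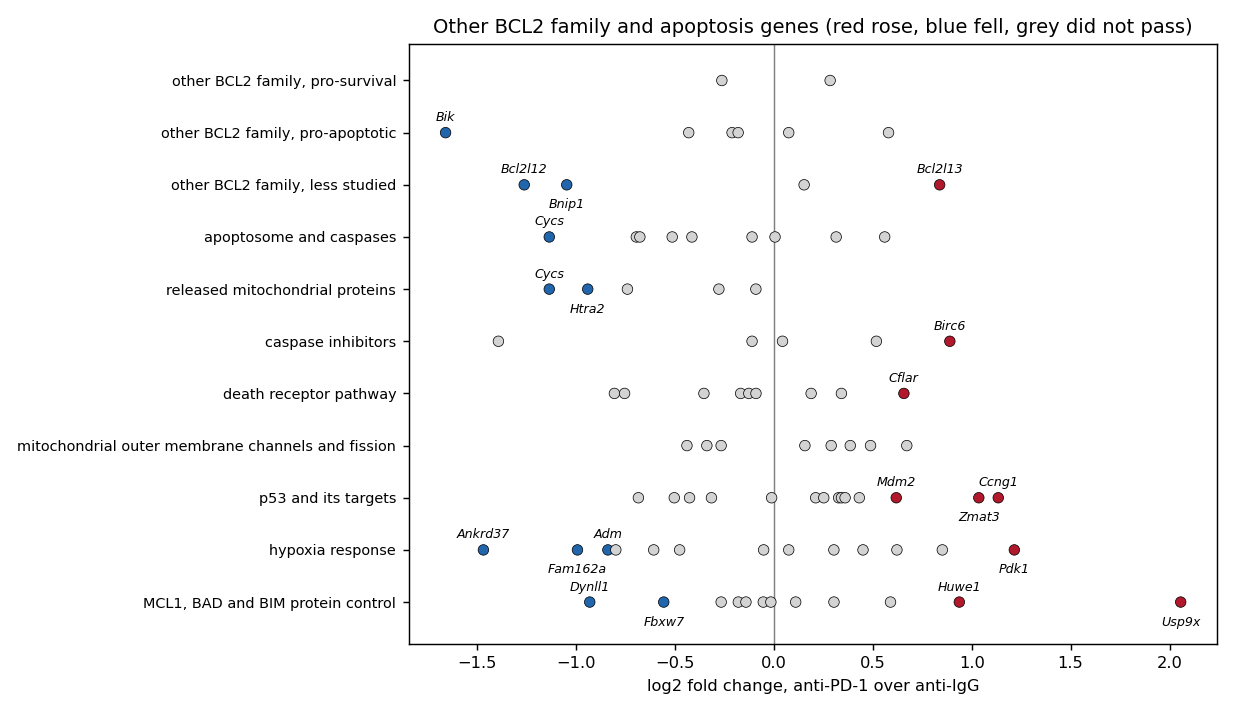
Log2 fold change (anti-PD-1 over anti-IgG) of the tested genes of each list of other BCL2 family and apoptosis genes, a point per gene; red points rose, blue points fell and grey points did not pass an adjusted p of 0.05. Cycs stands in 2 lists, and most points are grey.

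The genes whose values over the 6 libraries were most like those of Bax, the member with the smallest p, were Blvrb (Pearson r = 0.997), Gngt2 (0.997) and Bcap31 (0.997) among 12176 genes. In all 1122 genes had r above 0.9 with Bax over these 6 libraries.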

How the data were processed

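RNA of mouse left ventricle was sequenced in 6 libraries, 3 per group; per the labels' protocols, mRNA was enriched and converted with a NEBNext Ultra kit. The authors deposited raw read counts per gene; featureCounts and mm10 are named in the submitters' processing notes, and the aligner, versions and strand setting are not given in the sources used here. Alongside, the authors deposited FPKM per kb of their gene length, with a scaling between libraries that is not described. Library totals were 18063344 to 21093163 counts, so genes with few reads have wide error.

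Counts were tested with edgeR 4.0.16 (R 4.3.3): filterByExpr, TMM, glmQLFit with robust=TRUE, 2-sided quasi-likelihood test, Benjamini-Hochberg adjustment over all 14807 tested genes, threshold 0.05. Standard errors were taken as the log2 fold change over the root of F. CPM use TMM-scaled library sizes. Length trends were natural splines of 5 degrees of freedom in log2 length, fitted per library on log2 CPM (prior count 2) about each gene's mean and entered as an offset; coding and 3′ UTR lengths come from the longest GENCODE M21 transcript with both. Alternatives used DESeq2 1.42.0, limma 3.58.1 on voom weights and on log2(FPKM + 1) and log2(FPKM + 0.1), other scalings, filters and thresholds, a replicate block, and each library left out. The fit was tested on simulated data. Genes named were the members and, per list, those past the threshold (up to 4) or the 2 with the smallest p. Dynll2, Zfp36 and the marker genes were named after their values were seen. For the member with the smallest p, genes were ranked by Pearson correlation of log2 CPM. The members and lists were chosen with earlier results of these data known. Whether replicate numbers pair the samples is not stated in the sources used here, and the main fit did not pair them.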

Additional observations from a re-analysis of the deposited data

How the results depend on the processing

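Across alternatives the direction of Bax, Bad, Bbc3, Bid, Bcl2 and Bnip3 was kept in every fit that gave a value; Bid had none under the FPKM filter. All tested genes past the threshold numbered 3118, against 1488 with the gene length trend removed, 1561 with that and the replicate block, 816 with the coding and 3′ UTR length trend removed, 572 at an adjusted p under 0.01 and 532 to 3646 with each library left out. For the 10 members the count of 3 became 1 by limma-trend on log2(FPKM + 1) or log2(FPKM + 0.1), 1 with the coding and 3′ UTR length trend removed, 1 at an adjusted p under 0.01 and 0 to 3 with each library left out. For the 93 other genes the count of 19 became 11 with the gene length trend removed, 9 with the replicate block added, 5 with the coding and 3′ UTR length trend removed, 3 and 29 at an adjusted p under 0.01 and 0.1, and 3 to 29 with each library left out. Values of members near 0 changed sign: Bak1 was at 0.010 by limma-trend on log2(FPKM + 1) with either filter, 0.017 on log2(FPKM + 0.1), 0.22 with the gene length trend removed (0.25 with the replicate block), 0.27 with the coding and 3′ UTR length trend removed, and -0.24 to 0.28 with each library left out. Bcl2l1 was at -0.020 with the gene length trend removed and the replicate block, and at -0.18 to 0.42 with each library left out; Bcl2l11 ranged there from -0.45 to 0.16, and Mcl1 was at -0.032 with the coding and 3′ UTR length trend removed. The cause of these changes was not tested. With each library left out the ratios moved by less than the spread between replicates: -1.13 to -0.74 for the summed ratio and -2.28 to -1.52 for Bax to Bcl2. Per kb of transcript, a setting chosen after seeing the data, the summed ratio differed by -1.07. This setting changes the divisor and removes no length trend. The difference of -1.98 for Bax to Bcl2 is the same for any length used. The gap between their fitted log2 fold changes went from -2.10 to -1.18 with the gene length trend removed. It was -1.05 with the coding and 3′ UTR length trend removed. Upper quartile scaling put the median of all tested genes at -0.12, against -0.03, and 36.8% of called genes rose with it, against 48.9%. Same-numbered libraries correlated at 0.153, -0.157 and 0.231 in their deviations from group means, against -0.384 to 0.233 for libraries of different number. With 3 libraries per group these values cannot tell whether the numbers pair the samples. The replicate block alone gave 3367 genes and the same 3 members.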

Other observations

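The genes listed for control of MCL1, BAD and BIM proteins moved in both directions: of 12 tested, 2 rose, 2 fell and 8 did not pass (median log2 fold change -0.03), against 10.3% higher and 10.8% lower among all tested genes. Usp9x, a deubiquitinase that stabilises MCL1, had 244, 246 and 199 CPM for libraries 1 to 3 of anti-PD-1, against 79.6, 45.5 and 40.5 CPM for those of anti-IgG (log2 fold change 2.06 ± 0.26 (SE), adjusted p = 0.00287 by edgeR). It passed in all 21 alternatives, with log2 fold changes of 1.14 to 2.42. Huwe1, a ligase that marks MCL1 for degradation, rose by 0.94 on the log2 scale (edgeR adjusted p = 0.0111), but not past the threshold with the coding and 3′ UTR length trend removed (0.28, 0.322) or without anti-IgG library 2 (0.0546). Fbxw7, the substrate receptor of another MCL1 ligase, fell by 0.56 on the log2 scale (edgeR adjusted p = 0.0413) and was at -0.84 with that trend removed (0.0288); its call held without anti-IgG library 1 and ended without any other single library (up to 0.162). Dynll1, a light chain that tethers BIM in the cytosol, was at -0.93 (0.0467; 0.288 with that trend removed, and up to 0.168 without library 2 or 3 of anti-IgG or library 1 or 2 of anti-PD-1), while its paralog Dynll2, which tethers the BH3-only protein BMF, was at 0.59 and did not pass (0.0789; 1.01 and 0.0327 with that trend removed). Mcl1 transcript itself differed by less than its SE between the groups.

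Of the 10 immediate early genes, which respond to handling, 0 passed by edgeR and 0 by DESeq2 (median log2 fold change 0.03; 1 with an unadjusted p under 0.05, Zfp36 at -0.62), and their sum was 193 to 413 CPM under anti-PD-1 and 185 to 301 CPM under anti-IgG.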
